A study of Mus musculus with 8 samples.

Results

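Small leucine-rich proteoglycans are secreted matrix proteins built from leucine-rich repeats, most of them carrying chains of sulphated sugars. In the corneal stroma they coat collagen fibrils and set fibril width and spacing, on which the transparency of the cornea rests, and keratocytes, the resident stromal cells, are their main source. Keratocan and lumican carry keratan sulphate in the cornea, and decorin and biglycan carry chondroitin or dermatan sulphate. The 10 genes Kera, Lum, Dcn, Ogn, Omd, Fmod, Bgn, Prelp, Aspn and Podn were taken by symbol from a table of 23597 genes, and all 10 were found.

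RNA came from corneas of dry eye mice that had all been injected with scopolamine, which blocks muscarinic receptors, until day 14. The 4 ICI samples came from mice also given ICI 118551, a blocker of β2-adrenergic receptors, and the 4 Scop samples from mice without it. A sample was a pool of 4 corneas. The labels read here give no strain, sex, age, dose or route, and do not tie pools to animals, so the p-values rest on the spread between 8 pools, which may be technical. Corneas without dry eye were not analysed here.

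Values were in FPKM, fragment numbers divided by gene length and by the depth of the library, and between 34354346 and 39885822 fragments per library stood behind them. Krt12 and Aldh3a1, defining genes of the corneal epithelium, were at 15153 FPKM or more and 9564 FPKM or more in every library. The 10 keratocyte markers outside the family summed to between 681 and 886 FPKM in ICI, to between 644 and 720 in Scop replicates 1, 2 and 4, and to 363 in Scop replicate 3, where 9 of the 10 were at their lowest. The 7 epithelial markers summed to 39265 FPKM in Scop replicate 3 and to between 34441 and 36670 in the other libraries, with 3 of 7 at their highest and 0 at their lowest in Scop replicate 3. Limbal and conjunctival markers (5 in the table) summed to 4289 FPKM there and to between 2735 and 3163 elsewhere. The 6 corneal endothelial markers summed to 575 FPKM in ICI replicate 1, the highest, to between 245 and 384 in the other libraries but Scop replicate 3, and to 216 there, where 5 of the 6 were at their lowest. Markers of cartilage-like scleral matrix were low, with Acan at 0 in all libraries and Col2a1 at most 0.0402 FPKM. Comp reached 0.357 and Chad 0.620 FPKM, and Wif1 was at 0.349 to 1.13 FPKM. The 3 loci that collect or follow ribosomal RNA reads (Gm26917, AY036118 and Lars2) summed to between 3826 and 3995 FPKM in ICI, to 717, 954 and 1177 in Scop replicates 1, 2 and 3, and to 5113 in Scop replicate 4. The part of these differences in the results was not tested. Scop replicate 3 stood apart in its stromal transcripts. The comparisons are given with and without it, as the rule for the member list asked. In bulk RNA fewer keratocytes and less RNA per keratocyte cannot be told apart.

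Most of the family sits in clusters (positions from the GENCODE M21 annotation of the mm10 build). On chromosome 10, Dcn (97479609 to 97518143), Lum (97565128 to 97572703) and Kera (97606879 to 97613692) follow each other on the plus strand with gaps of 47.0 and 34.2 kb, and Epyc, a cartilage member of the family, lies 30.4 kb beyond Kera. On chromosome 13, Aspn (49544443 to 49567565), Omd (49582462 to 49592822) and Ogn (49608046 to 49624501) follow Ecm2 on the plus strand with gaps of 14.9 and 15.2 kb between them, inside the span of Cenpp on the other strand. On chromosome 1, Prelp (133910304 to 133921414, minus strand) and Fmod (134037254 to 134048277, plus strand) are 115.8 kb apart, and the antisense transcript Gm15851 overlaps Prelp. Bgn (73483602 to 73495933) is on chromosome X, and Podn (108014791 to 108096445) on chromosome 4, where its annotated span overlaps that of Scp2. No source read here says whether the counting used strand, so reads of Prelp and Gm15851 may not have been told apart.

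Upstream windows are shown for Bgn and Fmod, the pair with the closest profiles among members whose window could be printed, and for Prelp, whose share of the family differed between the groups. RefSeq windows (GRCm38.p6) were found for 8 of the 10 genes, not for Lum and Dcn, and the window of Kera lies within an annotated exon. The motifs searched on both strands of the 250 bases before the start were TATAAA (found in 12.4% of all 32851 windows), CCAAT (in 33.8%), the GC box GGGCGG (in 32.7%) and the AP-1 motif TGANTCA (in 6.75%). Bases in a match are in capitals, and the 13 bases of the Prelp window that are annotated as exon were left out.
Fmod, chr1:134037004-134037253, plus strand: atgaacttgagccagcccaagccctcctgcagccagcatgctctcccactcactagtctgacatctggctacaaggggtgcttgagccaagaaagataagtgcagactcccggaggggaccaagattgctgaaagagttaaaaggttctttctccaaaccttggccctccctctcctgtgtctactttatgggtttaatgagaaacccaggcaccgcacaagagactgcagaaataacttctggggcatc
Bgn, chrX:73483351-73483600, plus strand: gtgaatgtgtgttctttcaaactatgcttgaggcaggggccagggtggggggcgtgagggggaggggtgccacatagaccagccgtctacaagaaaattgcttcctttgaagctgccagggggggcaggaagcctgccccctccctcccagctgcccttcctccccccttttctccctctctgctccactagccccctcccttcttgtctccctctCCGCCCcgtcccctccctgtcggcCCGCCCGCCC
Prelp, chr1:133921415-133921651, minus strand: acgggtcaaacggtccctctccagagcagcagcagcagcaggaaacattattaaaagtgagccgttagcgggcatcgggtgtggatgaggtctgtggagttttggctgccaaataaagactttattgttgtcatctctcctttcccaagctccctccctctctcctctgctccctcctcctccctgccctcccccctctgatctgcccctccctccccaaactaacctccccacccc
The Bgn window held 3 GC box matches on the complementary strand, beginning 34, 10 and 6 bases before the start, the last 2 overlapping. In the windows of Fmod and Prelp none of these motifs was found. The GC content was 51.2% (Fmod), 64.4% (Bgn) and 56.5% (Prelp), against a median of 52.4% over all windows.

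Dcn was the most abundant transcript of the family per length in each of the 8 libraries, followed by Lum. Dcn, which encodes decorin, a proteoglycan with a single sugar chain that binds collagen and TGF-β, was at 1202, 1192, 944 and 924 FPKM in ICI replicates 1 to 4 and at 1105, 932, 342 and 1029 in Scop replicates 1 to 4. Scop replicate 3 was low, and the other 3 Scop libraries lay within the range of ICI. Lum, the gene of lumican, was at 342, 345, 298 and 256 FPKM in ICI and at 306, 267, 85.8 and 294 in Scop. Again only Scop replicate 3 lay below ICI. Dcn exceeded Lum by 3.17 to 3.99 times and Lum exceeded Kera by 1.37 to 2.20 times in all 8 libraries. Dcn and Lum had the closest profiles of any pair in the family, with a root mean square difference of 0.083 between their centred log2(FPKM + 1) values over the 8 libraries, and 0.059 without Scop replicate 3.

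Kera, the gene of keratocan, whose expression marks corneal keratocytes, was at 249, 211, 196 and 164 FPKM in ICI replicates 1 to 4 and at 184, 163, 39.0 and 169 in Scop replicates 1 to 4. ICI replicates 1, 2 and 3 lay above every Scop library, and ICI replicate 4 lay within Scop replicates 1, 2 and 4. ICI replicate 1, with the highest sum of endothelial markers, was also the highest library for Kera, Dcn, Fmod and Bgn. Bgn, the gene of biglycan, a relative of decorin that can also signal through Toll-like receptors, was at 205, 168, 144 and 147 FPKM in ICI and at 162, 133, 66.7 and 154 in Scop. Scop replicates 2 and 3 lay below every ICI library. Kera stood above Bgn by 1.10 to 1.36 times in 7 libraries and below it in Scop replicate 3 (ratio 0.585).

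Fmod, the gene of fibromodulin, which binds collagen and steers fibril assembly, was at 56.2, 49.0, 43.1 and 41.4 FPKM in ICI and at 48.2, 31.9, 21.9 and 51.1 in Scop. Scop replicates 2 and 3 lay below ICI. Prelp, which encodes a protein with a basic amino terminus that binds heparan sulphate and collagen, was at 22.8, 21.8, 20.1 and 18.95 FPKM in ICI and at 26.9, 22.5, 10.8 and 25.7 in Scop. Here Scop replicates 1 and 4 lay above every ICI library, and Scop replicate 3 below. Ogn, the gene of osteoglycin or mimecan, which carries keratan sulphate in the cornea, was at 11.8, 15.7, 9.60 and 12.9 FPKM in ICI and at 13.7, 11.8, 4.50 and 10.4 in Scop, with overlap apart from Scop replicate 3.

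Omd, Aspn and Podn were low throughout. Omd, the gene of osteomodulin, known from mineralised tissue, was at 0.573, 1.04, 0.548 and 0.521 FPKM in ICI and at 1.49, 0.847, 0.568 and 0.843 in Scop, with Scop replicate 1 above the rest. Aspn, the gene of asporin, a decorin relative with an aspartate-rich stretch, was at 0.345, 0.665, 0.550 and 1.21 FPKM in ICI and at 0.933, 0.475, 0.0862 and 0.660 in Scop. It rested on 32 to 107 fragments in 7 libraries and on 7 in Scop replicate 3. Podn, the gene of podocan, was at 0.152, 0.357, 0.294 and 0.410 FPKM in ICI and at 0.690, 0.305, 0.298 and 0.327 in Scop, on 28 to 129 fragments. Omd stood above Podn in all 8 libraries, while the place of Aspn among the 3 changed between libraries. All other neighbours in the order Dcn, Lum, Kera, Bgn, Fmod, Prelp, Ogn, Omd kept it in the 8 libraries, except Kera and Bgn.

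**Figure D1:**
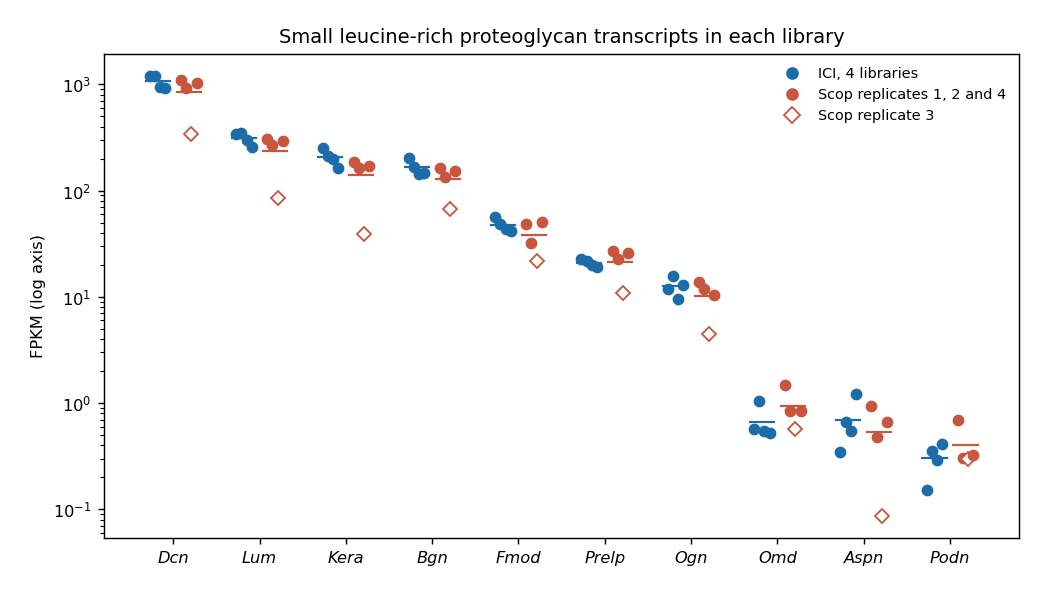
FPKM of each gene (log axis) in the 4 ICI libraries (blue), Scop replicates 1, 2 and 4 (red, filled) and Scop replicate 3 (open diamonds), with short lines at the group means. Dcn leads in every library, and Scop replicate 3 is the lowest of the 8 libraries for 8 of the 10 genes, the exceptions being Omd and Podn.

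The comparison of ICI with Scop asks how proteoglycan transcripts differ with the β2 blocker, given scopolamine in every mouse. No difference in level was detected. Of the 9 members tested, 0 rose and 0 fell at limma's adjusted p under 0.05, as did 0% of all 12100 tested genes in each direction, and Podn was under the minimum mean of 0.5 FPKM. At an unadjusted p under 0.05 the count was 0 of 9, against 12% of all tested genes, 4.56% higher (552) and 7.46% lower (903), or 734 and 676 after median-ratio scaling. All 10 members overlapped between the groups, where 6.98% of tested genes did not. The log2 fold changes, on the log2(FPKM + 1) scale, were positive for 8 of the 9 (44.6% of all tested genes), with a median of 0.37 against -0.02 over all genes tested.

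Kera had the largest value, 205 ± 35.2 FPKM in ICI against 139 ± 67.0 in Scop (mean ± SD, n = 4 each), a log2 fold change of 0.77 (SE 0.42, limma's adjusted p = 0.504). Lum was at 310 ± 42.0 against 238 ± 103 FPKM (0.53, SE 0.35) and Dcn at 1065 ± 152 against 852 ± 347 FPKM (0.45, SE 0.32). Bgn (0.43, SE 0.25), Fmod (0.37, SE 0.23) and Ogn (0.36, SE 0.27) had similar values with limma's adjusted p between 0.525 and 0.626. For Aspn the value was 0.14 (SE 0.19), for Prelp 0.04 (SE 0.23), and for Omd -0.20 (SE 0.15).

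Without Scop replicate 3 the values of 7 members were smaller. Kera then stood at 172 ± 10.9 FPKM in the 3 remaining Scop libraries and had 0.24 (SE 0.12, limma's adjusted p = 0.384), Lum had 0.09 (SE 0.10) and Dcn 0.05 (SE 0.10). Bgn was at 0.14 (SE 0.12), Fmod at 0.13 (SE 0.16) and Ogn at 0.05 (SE 0.14). Omd then had the value farthest from 0, -0.30 (SE 0.14, unadjusted p = 0.0631, limma's adjusted p = 0.378). The median of the 9 members was 0.05 against -0.03 over all genes tested, and 6 of 9 were positive, against 39.7%. Prelp turned to -0.25 (SE 0.08, unadjusted p = 0.0119, limma's adjusted p = 0.226), and Aspn to -0.01. Prelp was the only member with an unadjusted p under 0.05 in this direction, 1 of 9, against 10% of all tested genes, none of the 9 passed in the other direction, against 4.2%, and after adjustment 0 of 9 passed, against 0.00826%. Groups still overlapped in all 10 members, where 13.6% of tested genes did not. The spread within Scop fell with this library left out for all members but Podn. For Lum the coefficient of variation went from 43.2% to 6.84%, with 13.5% in ICI. For Omd it went only from 41.8% to 35.3%, and for Podn from 47.0% to 49.1%.

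**Figure D2:**
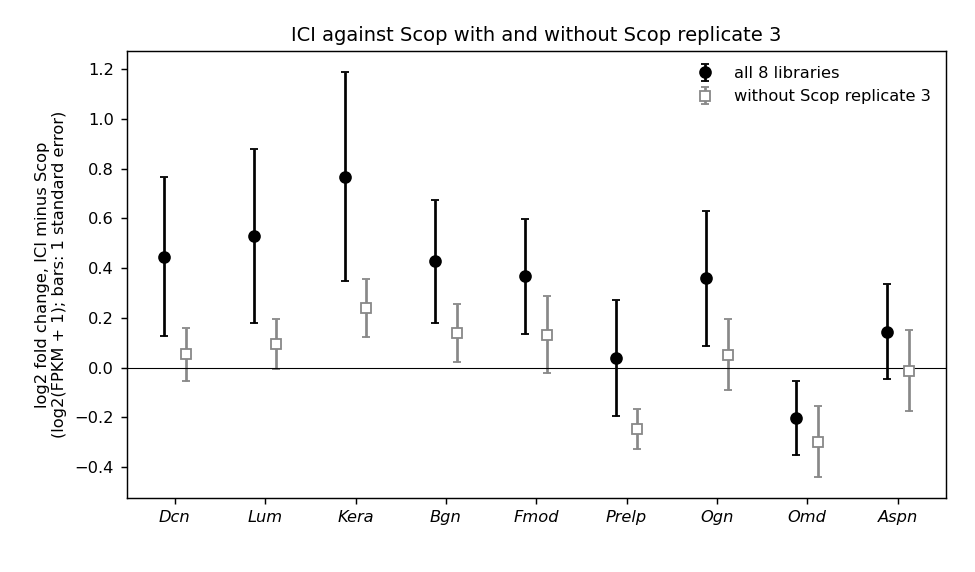
Log2 fold change of ICI minus Scop on the log2(FPKM + 1) scale for the 9 tested genes, with 1 standard error, from all 8 libraries (black circles) and without Scop replicate 3 (open squares). Kera goes from 0.77 to 0.24, Dcn from 0.45 to 0.05 and Prelp from 0.04 to -0.25.

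In Scop replicate 3 the members fell short by unequal factors. At 8 of 10 members this library was the lowest of the 8, against 24.9% of all tested genes, and the same 8 were at 50% or less of the median of the other 7 libraries, against 4.02%. The median of the other 7 over the value in Scop replicate 3 was 4.72 for Kera, 3.48 for Lum, 3.01 for Dcn, 2.62 for Ogn, 2.30 for Bgn, 2.20 for Fmod and 2.08 for Prelp. Aspn had 7.65, on 7 fragments, and Omd and Podn 1.48 and 1.10. Even the lowest of the other libraries exceeded Scop replicate 3 by 4.18 times for Kera and 1.46 times for Fmod. These factors describe 1 library and have no replicate check. Collagen genes of the same stroma gave factors between 1.96 (Col5a1) and 2.98 (Col1a2) for 10 of the 11 listed, with Col3a1, a collagen of other connective tissue, at 1.16. Kera, Lum, Aspn and, narrowly, Dcn thus had larger factors than any listed collagen. For Prelp the factor was smaller than for all but Col5a1 and Col3a1.

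**Figure D3:**
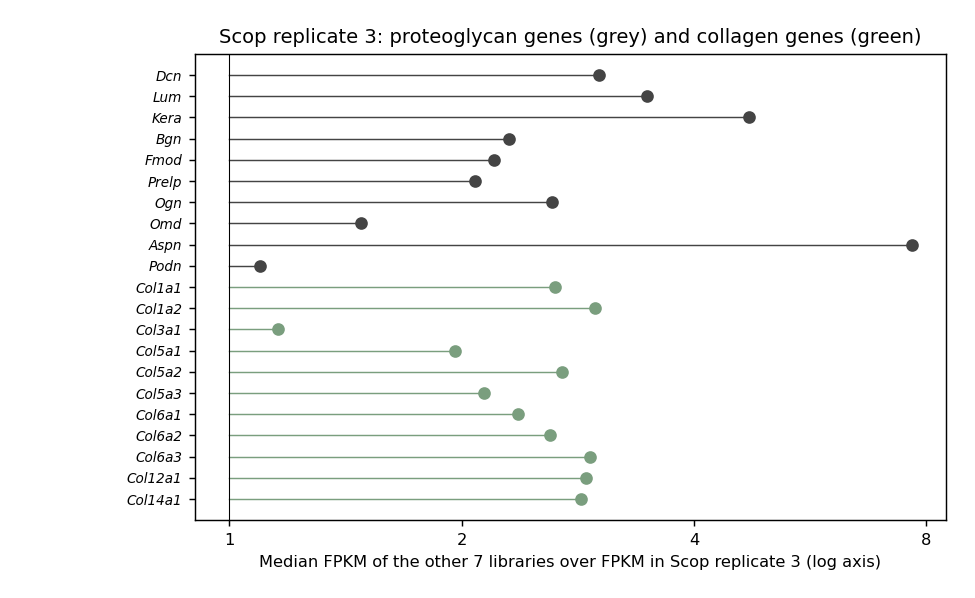
Median FPKM of the other 7 libraries divided by the FPKM in Scop replicate 3 (log axis, line at 1) for the 10 proteoglycan genes (grey) and 11 collagen genes (green). Kera (4.72), Lum (3.48) and, narrowly, Dcn (3.01) lie above the highest collagen, Col1a2 (2.98). So does Aspn (7.65), which rests on 7 fragments in that library.

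The make-up of the family within each library was then compared. Summed over the 10 genes, FPKM ran from 1566 to 2089 in ICI and was 1848, 1563, 571 and 1734 in Scop replicates 1 to 4. Dcn made up 58.2 ± 1.18% of this sum in ICI and 59.6 ± 0.220% in Scop, and Lum 17.0 ± 0.784% and 16.4 ± 0.956%. Bgn held 9.06 ± 0.642% and 9.45 ± 1.49%, and Fmod 2.59 ± 0.107% and 2.86 ± 0.748%, with overlap. In Scop replicate 3 the shares of Bgn and Fmod were the highest of all libraries, 11.7% and 3.83%.

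Prelp and Kera were the 2 members whose shares did not overlap between the groups. Prelp held 1.09, 1.09, 1.21 and 1.21% in ICI and 1.45, 1.44, 1.89 and 1.48% in Scop, so that its share was lower in every ICI library, also without Scop replicate 3. Of all tested genes 5.02% were lower in this way when set against the same sum, and 5.06% without that library. Relative to Col1a1 and Col1a2, the genes of the main stromal collagen, Prelp was lower in every ICI library too, between -2.84 and -2.37 in ICI and between -2.24 and -1.89 in Scop on the log2 scale (2.98% of tested genes were lower in this way, also without Scop replicate 3). That difference of -0.53 did not lie in Prelp itself, whose own log2 fold change was 0.04, against 0.54 for Col1a1 and 0.59 for Col1a2. Without Scop replicate 3 the difference was -0.47, of which Prelp itself gave -0.25. Against all 11 listed collagens Prelp was again lower in every ICI library (-0.22). How many of all tested genes separated against these 11 was not counted. Omd was also lower than Col1a1 and Col1a2 in every ICI library, with a difference of -0.77 and its own log2 fold change at -0.20, but overlapped against all 11 collagens.

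Kera held 11.9, 10.5, 11.8 and 10.5% in ICI and 9.95, 10.4, 6.83 and 9.73% in Scop, higher in every ICI library also without Scop replicate 3. Of all tested genes 0.0165% were higher against the family's sum in all ICI libraries, namely Kera and Tceal3 (at 0.158 to 1.30 FPKM, named after its values had been seen), and 0.595% without Scop replicate 3. The sum was 571 FPKM in Scop replicate 3 and 1563 to 2089 elsewhere. A gene at an even level could therefore not count as higher in ICI with that library, and the 0.0165% is low in part for this reason. The lowest ICI share of Kera (10.5%) and the highest Scop share (10.4%) nearly met. Relative to Col1a1 and Col1a2, Kera lay between 0.55 and 0.71 in ICI and at 0.49, 0.77, -0.12 and 0.59 in Scop, with overlap (difference 0.20, and 0.02 without Scop replicate 3). Relative to all 11 listed collagens it was higher in every ICI library, at 3.26 to 3.45 against 3.04, 3.16, 2.06 and 3.12 in Scop (difference 0.51, and 0.25 without Scop replicate 3). The share of all tested genes that separate against the 11 collagens was not counted, so how unusual this is cannot be said. The 11 were averaged with equal weight, low genes such as Col3a1 included. Their average differed less between the groups than Col1a1 and Col1a2 did, so this separation depends on the reference chosen. The shares and these differences are descriptions, with no test.

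The ratio of Lum to Kera, both genes of keratan sulphate proteoglycans and neighbours on chromosome 10, was 1.37, 1.63, 1.52 and 1.56 in ICI and 1.66, 1.64, 2.20 and 1.74 in Scop. It was lower in 4 of 4 ICI libraries, and the log2 ratio differed by -0.24 (two-sided exact permutation p = 0.0286, which is the lowest possible for 4 against 4, and 0.0571 adjusted over the 2 ratios tested). Without Scop replicate 3 the groups stayed apart, and the difference was -0.15 (exact permutation p = 0.0571). Without ICI replicate 1, the lowest library in this ratio, it was -0.20 (exact permutation p = 0.114). The gap between the groups rests on ICI replicate 2 and Scop replicate 2. There Kera made up 38.4% (95% Wilson interval 38.0 to 38.8) and 38.3% (37.8 to 38.8) of the fragments of both genes, within counting error of each other. The interval of Scop replicate 1, at 38.0% (37.5 to 38.5), also met that of ICI replicate 2. Scop replicate 3 had 31.6% (30.7 to 32.6) and ICI replicate 1 had 42.6% (42.2 to 43.0). These intervals cover counting error only. Dcn to Lum, the other ratio, ran from 3.17 to 3.61 in ICI and from 3.49 to 3.99 in Scop, with a log2 difference of -0.09 (exact permutation test, two-sided, p = 0.257), and -0.04 without Scop replicate 3 (exact permutation p = 0.514).

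**Figure D4:**
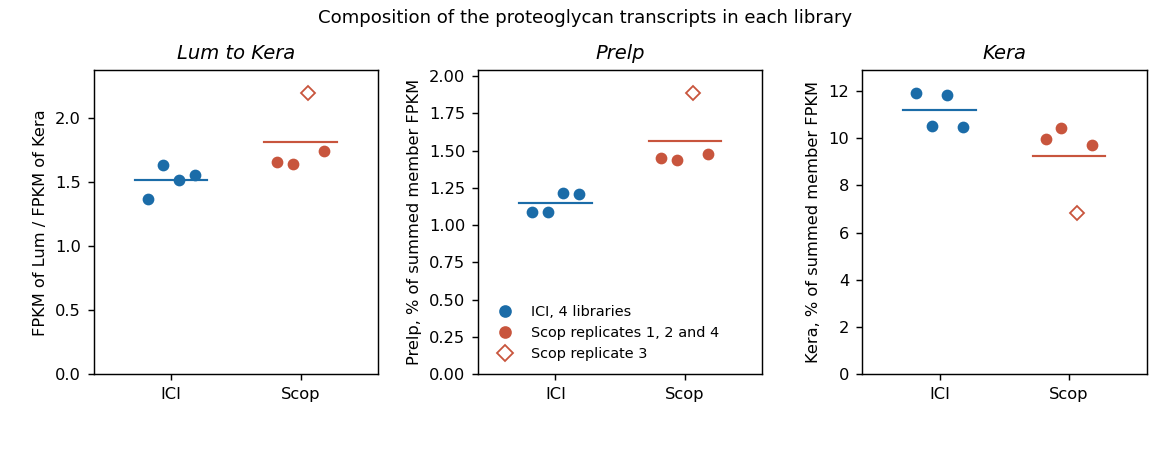
From left to right, the ratio of Lum to Kera FPKM, the share of Prelp and the share of Kera in the summed FPKM of the 10 genes (%), by library, with lines at the group means and axes from 0. The groups do not overlap in any of the 3 panels, by the widest gap for Prelp (at most 1.21% in ICI, at least 1.44% in Scop), and Scop replicate 3 is extreme in each.

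The genes whose levels ran most like those of Kera, Lum and Dcn over the 8 libraries were searched among 7179 genes of at least 5 FPKM. Nearest to Kera was A2m, a protease inhibitor gene (root mean square difference 0.19), then Abca8a, a lipid transporter gene, Col1a2, Slc26a7, an anion exchanger gene, and Col12a1. Nearest to Lum were Abca8a (0.097), Slc26a7, Srpx, Mamdc2 and A2m, and nearest to Dcn Abca8a (0.091), Mamdc2, Col5a2, Srpx and Angptl1. In Scop replicate 3 A2m stood at 87.0 FPKM against 251 to 403 elsewhere, Abca8a at 1.51 against 6.04 to 8.29, and Slc26a7 at 2.10 against 8.22 to 12.3. A search without that library, added after the data had been seen, kept 0 of the 5 genes for Kera, 0 for Lum and 2 for Dcn (Col5a2 and Angptl1). Nearest were then Fibin to Kera (0.042), Matn4, a matrilin gene, to Lum (0.042) and Fxyd6 to Dcn (0.034).

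Enzymes that build the sugar chains did not pass the test in either direction. For keratan sulphate synthesis 0 of 6 tested genes passed over all genes (median log2 fold change 0.14, and -0.03 without Scop replicate 3). Chst5, which sulphates corneal keratan sulphate, was at 16.9, 10.7, 11.3 and 8.46 FPKM in ICI and at 13.4, 12.7, 3.64 and 9.24 in Scop, and B3gnt7, which extends the chain, at 12.3, 10.4, 11.8 and 8.76 against 11.9, 12.2, 5.17 and 9.79. Both were lowest in Scop replicate 3 by factors of 3.10 and 2.29. B4galt1, a widely used galactosyltransferase gene, was at 32.4 to 38.2 FPKM in ICI and 38.9 to 42.1 in Scop, lower in all ICI libraries without passing (-0.20, SE 0.06, limma's adjusted p = 0.256, and -0.18 without Scop replicate 3), and highest in Scop replicate 3.

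For the chondroitin and dermatan sulphate chain 0 of 13 tested genes passed (median 0.05, and -0.02 without Scop replicate 3). Chst14, the dermatan sulphotransferase gene, was at 2.35, 2.49, 3.20 and 2.58 FPKM in ICI and at 2.22, 1.71, 1.51 and 2.34 in Scop. Its lowest ICI value lay just above its highest Scop value (0.31, SE 0.11, limma's adjusted p = 0.318, and 0.24 without Scop replicate 3). Dse, the epimerase gene that makes dermatan from chondroitin, was at 1.04 to 1.81 FPKM in ICI and 0.729 to 1.90 in Scop. Linker and precursor genes gave 0 of 13 (median 0.03, and 0.04 without Scop replicate 3), among them Papss2, which makes the sulphate donor, at 16.5 to 20.8 FPKM in ICI and 15.5 to 18.4 in Scop.

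Partners of the family in the matrix gave the same counts. Of 11 collagens 0 passed, 9 were positive (median 0.26, and 0.05 without Scop replicate 3) and 10 were lowest in Scop replicate 3. Of 12 tested genes for enzymes that process procollagen or cleave proteoglycans, and their inhibitors, 0 passed (median 0.14, and -0.03 without Scop replicate 3), with Pcolce, an enhancer of procollagen processing, at 45.7 to 54.6 FPKM in ICI and 28.4 to 48.4 in Scop. Receptors and growth factors bound by the family gave 0 of 13 (median 0.04, and 0.01 without Scop replicate 3), such as Tgfb1 at 13.9 to 15.6 FPKM in ICI and 14.4 to 18.03 in Scop, and Lrp1, an endocytic receptor gene, at 15.5 to 19.7 and 12.6 to 17.9. Of the other proteoglycans 0 of 9 passed (median 0.09, and 0.02 without Scop replicate 3). The syndecan genes Sdc2 and Sdc3 were lowest in Scop replicate 3, by factors of 2.77 and 2.35, and the glypican gene Gpc3 was at 25.8 FPKM or more in all libraries. Among further leucine-rich repeat genes of the matrix only Ecm2 and Tsku, of 8 listed, were high enough to test, and neither passed (-0.02, SE 0.13, and -0.01, SE 0.10), nor without Scop replicate 3 (-0.15 and -0.08). Ecm2, the neighbour of Aspn, was at 0.581 to 0.667 FPKM in ICI and at 0.842, 0.693, 0.230 and 0.846 in Scop, so that it was lower in every ICI library once Scop replicate 3 was left out.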

How the data were processed

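The values are FPKM as the authors deposited them, 1 table for all samples, with no stated scaling between libraries. Tools named per the submitters' processing notes are fastp, HISAT2 and HTSeq, and the build is mm10. Versions, annotation and strand setting: not given in the sources used here. Columns were matched to samples by title, which gave group and replicate number.

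Whole fragments were recovered from the steps of the FPKM (99.8% of genes, relative tolerance 5e-13, whole within 0.01). Omd was not recovered. A factor shared by all libraries would make a gene's fragments too low. The lowest chi-square per degree of freedom between libraries was 12.5, and each library was kept as its own sample. By this measure Scop replicate 4 was nearer to the ICI libraries (16.8 to 26.9) than to the other Scop libraries (52.4 to 67.4). The reason was not tested.

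Genes were tested with limma 3.58.1 in R 4.3.3 (eBayes with trend) on log2(FPKM + 1), over 12100 genes (mean FPKM 0.5 or higher), with two-sided p-values and Benjamini-Hochberg adjustment at 0.05. Such fold changes understate those of low genes. The fit was tested on simulated data. Ratios were compared by exact permutation over samples (Python 3.11.15).

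The members and gene lists were chosen with earlier results of these data known. Named genes were the members, the 3 tested genes of smallest p in each list with a few fixed ones (Col1a1, Col1a2, Col5a1, Chst5, B3gnt7, Dse, Chst14), the 5 genes most like Kera, Lum and Dcn, and cell markers. Epyc, the other genes given by position, and the collagens set beside the members fall outside this rule in part. Alternatives tried: a pseudocount of 0.1 or 5, a filter of 5 FPKM or none, median-ratio and quantile scaling, eBayes without trend or robust, array weights, limma-voom on the recovered fragments, the replicate number as a block, all listed collagens as the reference, the likeness search without Scop replicate 3 (chosen after seeing the data), ratios of FPKM + 1, and leaving out each library.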

Additional observations from a re-analysis of the deposited data

Results flagged for a closer look

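In 3 of the 20 groups of 4 libraries examined (10 genes in ICI and in Scop), 1 library lay far from the others by Dixon's test, which chance alone gives in about 1 of 20 groups. Kera in Scop replicate 3 was at 39.0 FPKM, with the other Scop libraries between 163 and 184 (gap over range 0.854). Omd in ICI replicate 2 was at 1.04 FPKM, with the other ICI libraries between 0.521 and 0.573 (0.899). Podn in Scop replicate 1 was at 0.690 FPKM, with the other Scop libraries between 0.298 and 0.327 (0.927). Scop replicate 1 also had the highest Omd (1.49 FPKM), Prelp (26.9 FPKM) and Col3a1 (4.31 FPKM, against 1.47 to 1.91 elsewhere).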

How the results depend on the processing

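Of 168 values of the 9 tested members under the alternatives, 164 kept their direction, none was called and 4 turned. Those were Prelp with array weights (-0.14), without ICI replicate 1 (-0.0024) and without Scop replicate 3 (-0.25), and Aspn without Scop replicate 3 (-0.013). With 1 library left out, Prelp ran from -0.25 to 0.17 and Aspn from -0.013 to 0.26. The cause was not tested. Omd and Aspn could not be fitted at the filter of 5 FPKM, nor Omd with limma-voom. Sizes moved more. Array weights brought Kera from 0.77 to 0.42, Lum from 0.53 to 0.24, Dcn from 0.45 to 0.19, Bgn from 0.43 to 0.24, Fmod from 0.37 to 0.24 and Ogn from 0.36 to 0.15. A pseudocount of 0.1 brought Aspn from 0.14 to 0.45 and Omd from -0.20 to -0.41, one of 5 brought them to 0.04 and -0.07, and limma-voom brought Aspn to 0.58. Members called stayed at 0 in each direction under every alternative. With the replicate block, limma's unadjusted p was under 0.05 for Kera (0.0498) and Bgn (0.0293), both higher in ICI, as for 643 of all 12100 genes. The same held for Fmod without Scop replicate 4, as for 405 of all 12100 genes. Over all genes array weights called 3 higher and 4 lower, and with 1 library left out the counts ran from 0 to 4 higher (4 without Scop replicate 4) and from 0 to 2 lower (2 without Scop replicate 4, 1 each without Scop replicates 1 and 3).

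The log2 ratio of Lum to Kera ran from -0.29 to -0.15 with 1 library left out (exact permutation p 0.0286 to 0.114), the test then having fewer samples. With the replicate block it was -0.24 (exact sign-flip permutation p = 0.125, the smallest that 4 pairs can give). Same-numbered libraries did not deviate together in every pair (correlations 0.287, -0.0093, 0.138 and 0.077), nor did every ICI library correlate best with its own number, and the replicate block left the members called at 0. Against all 11 listed collagens in place of Col1a1 and Col1a2, the difference of ICI minus Scop went from 0.20 to 0.51 for Kera and from -0.53 to -0.22 for Prelp, and turned for 5 members: Lum (-0.04 to 0.27), Dcn (-0.12 to 0.19), Ogn (-0.21 to 0.10), Fmod (-0.20 to 0.11) and Bgn (-0.14 to 0.17). Kera then no longer overlapped between the groups, and Omd did. The 11 collagens were averaged with equal weight on the log2(FPKM + 1) scale. The change of reference therefore shifted the difference of every member upward by the same amount. Col3a1, Col5a3 and Col14a1 are low, and their differences are understated on this scale. Col3a1 was also higher on average in Scop. The turns and the separation of Kera thus depend on the collagens chosen. A reference without the low collagens was not tested. The other share and collagen-relative values (163 of 170) moved by less than 1 SD. Nearly all of them came from leaving out 1 library. Leaving out 1 of 4 libraries cannot move a mean by 1 SD, so this count is no check of stability. Fragment numbers were low for Aspn and Podn, and those of Omd, also a low gene, were not recovered. All the group comparisons rest on the spread between 4 pools.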
